A study of Mus musculus with 6 samples.

Results

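Genes of steroid synthesis and conversion were followed in smooth muscle cells of the mouse pulmonary artery (mPASMCs) after knockdown of the long noncoding RNA *Snhg18*. The set holds 10 of the 55487 genes counted: the 3beta-hydroxysteroid dehydrogenases Hsd3b1, Hsd3b6 and Hsd3b7, the cholesterol carrier Star, and the steroid enzymes Cyp11a1, Hsd11b1, Hsd17b1, Srd5a1, Srd5a3 and Akr1c18. Hsd3b1 and Hsd3b6 were picked because their read counts were lower after the knockdown, so their values are given as a description with no test. The other 8 genes were not picked by their values, and 5 of them had enough reads for a test. In all, 7 of the 10 genes were among the 14531 genes tested.

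The cells were a purchased stock of mPASMCs used at low passage, with no genetic change stated. They received either a control siRNA without a target (si-NC) or an siRNA directed at *Snhg18* (si-Snhg18), and each group had 3 libraries numbered as repeats 1 to 3. The oxygen level of the sequenced cells, how long after transfection they were taken, and whether the repeats were separate cultures, are not given in the sources used here, so the p-values measure the spread between these libraries, which may be technical. Fewer cells that express a gene and less RNA in each cell cannot be told apart in such bulk RNA.

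Between 18097718 and 25988746 reads were counted in a library, fewest in si-Snhg18 3. The least level that a library can show was set at 3 reads, or 0.115 to 0.166 CPM (counts scaled to library size by TMM). This floor covers counting error only, as the reads carry no molecular identifiers. *Snhg18* itself was at 23.5, 22.4 and 22.2 CPM in si-NC and at 10.6, 11.2 and 9.97 CPM in si-Snhg18, so 46.7% of its level remained. The smooth muscle markers Acta2 (867 ± 65.7 CPM in si-NC, SD, n = 3) and Tagln (684 ± 6.88 CPM) were the most abundant of 7. Smtn (120 ± 6.70 CPM), Cnn1 (76.6 ± 2.49), Lmod1 (25.5 ± 2.61), Myh11 (18.6 ± 3.18) and Des (11.6 ± 7.01) were lower. Of the 7 smooth muscle markers, Tagln fell (481 ± 70.3 CPM in si-Snhg18, edgeR adjusted p = 0.0427) and the others were not called by edgeR without a block. The Tagln call was lost with library totals in place of TMM (edgeR adjusted p = 0.0602) and in 5 of the 6 fits with 1 library left out. DESeq2 called Cnn1 and Des lower as well, and edgeR with the repeat number as a block called Tagln, Myh11, Cnn1 and Des lower. For background, edgeR called 7.36% of all tested genes without the block and 27.2% with it. Of the 5 fibroblast markers, Col1a1 was at 1976.5 ± 430 CPM in si-NC, above each of the 7 smooth muscle markers. Pdgfra (477 ± 43.9 CPM) and Dcn (42.8 ± 7.08 CPM) were also present, whereas Lum (1.28 ± 0.652 CPM) and Tcf21 (0.49 ± 0.116 CPM) were low. None of the 5 was called without the block, while Pdgfra and Col1a1 were called lower with it. Of the 8 markers of adrenal cortex and gonad cells, only Inha had enough reads to test (1.71 ± 0.323 CPM in si-NC and 2.85 ± 0.813 CPM in si-Snhg18, n = 3), Cyp17a1 and Lhcgr had no read, while 6 reads was the most that any of the 5 others reached. Of the 6 leukocyte markers, Ptprc reached 8 reads in a library and Cd3e and Adgre1 had none, but Csf1r had 73 to 216 reads and Cd14 had 273 to 1244 (24.5 ± 11.6 CPM in si-NC and 36.9 ± 18.7 CPM in si-Snhg18, n = 3), and Cd14 was called higher with the replicate block. Of the 5 endothelial markers, Pecam1 reached 14 reads and Cdh5 had 203 to 247, and Tek was called lower with the block. Estimates were above 0 for 3 of the 4 tested endothelial markers. Among these, Kdr (log2 fold change 1.04) and Vwf (0.50) were not called by edgeR with or without the block. These marker genes were singled out after their values were seen. Of the 5 epithelial markers only Krt18 had enough reads to test. It was at 12.1 ± 8.68 CPM in si-NC and 3.50 ± 3.32 CPM in si-Snhg18 (n = 3) and was called lower with the block, Sftpc and Scgb1a1 had no read, and the part of other cell types in the results was not tested. Libraries with the same repeat number deviated together from their group means. The oestrogen receptor Gper1, singled out after its values were seen, had 4 and 2 reads in the libraries of repeat 2 and 477 to 1781 reads in the other 4.

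Steroid hormones are made from cholesterol. Star helps cholesterol to enter the mitochondrion, Cyp11a1 cuts its side chain to give pregnenolone, and a 3beta-hydroxysteroid dehydrogenase can then turn pregnenolone into progesterone. Further enzymes activate or inactivate the products in target tissues, so a cell can convert steroids from the blood without making them from cholesterol. The mouse has several Hsd3b genes side by side on chromosome 3. Hsd3b1 is known as the main form of the adrenal gland and gonads, and Hsd3b6 as a form of placenta and of the outer zone of the adrenal cortex.

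Hsd3b1 and Hsd3b6 are close paralogues, so the sequences that decide whether a read can be given to one or the other are shown first. The coding sequences of both genes, from the GRCm38 transcripts, are 1119 bases long and differ at 112 bases (90.0% identity, with no gaps). The 100 coding bases with the fewest differences between them, coding bases 213 to 312, hold 2 mismatches, which are in capitals. They span exons 4 and 5 of Hsd3b1 and exons 3 and 4 of Hsd3b6, so the coordinates include an intron.
Hsd3b1, chr3:98853362-98856091, minus strand: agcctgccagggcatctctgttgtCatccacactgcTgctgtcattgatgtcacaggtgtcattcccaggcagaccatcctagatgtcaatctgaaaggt
Hsd3b6, chr3:98806670-98807862, minus strand: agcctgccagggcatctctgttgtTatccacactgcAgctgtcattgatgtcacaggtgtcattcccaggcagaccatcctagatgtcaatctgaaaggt

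The 100 coding bases with the most differences, coding bases 54 to 153, hold 22 mismatches, again in capitals. They lie in exons 3 and 4 of Hsd3b1 and in exons 2 and 3 of Hsd3b6. A read from this stretch separates the genes easily, whereas one from the stretch above does so by at most 2 bases.
Hsd3b1, chr3:98856151-98857911, minus strand: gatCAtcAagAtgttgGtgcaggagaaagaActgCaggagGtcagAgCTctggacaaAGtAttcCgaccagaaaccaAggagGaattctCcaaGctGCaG
Hsd3b6, chr3:98807922-98810993, minus strand: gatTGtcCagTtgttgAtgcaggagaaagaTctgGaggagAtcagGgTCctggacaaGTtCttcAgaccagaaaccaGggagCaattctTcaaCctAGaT

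The longest run of bases common to the Hsd3b1 and Hsd3b6 transcripts was 72 bases. Of all stretches of 50 bases in the annotated transcripts, 38 were common to both genes, which was 2.05% of those of Hsd3b1 and 2.11% of those of Hsd3b6. No stretch of 100 bases was common to both. Against all annotated genes, 4.86% of the 50-base stretches of Hsd3b1 and 15.7% of those of Hsd3b6 were also found elsewhere. At 100 bases these shares were 0% and 3.11%, and at 150 bases 0% and 0.333%. The closest relatives of Hsd3b6 were Hsd3b3 (94.5% coding identity, longest common run 155 bases) and Hsd3b2 (94.4%, 147 bases), which are further forms of the same enzyme. The length of the reads and the treatment of reads with several matches are not given in the sources used here.

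**Figure D1:**
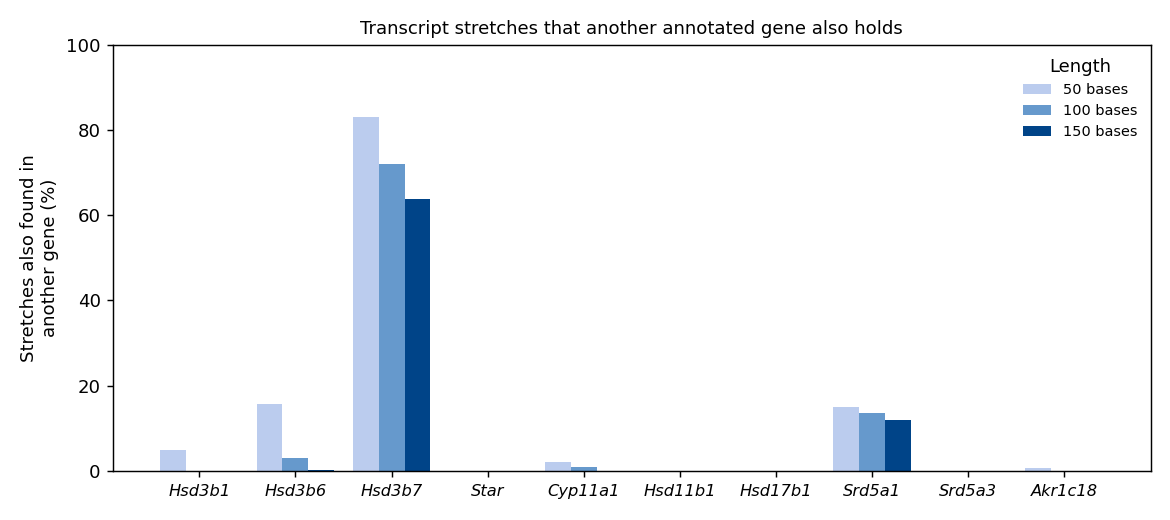
Share of the stretches of 50, 100 and 150 bases in the annotated transcripts of each gene that also occur, exactly and on either strand, in another annotated gene (percent). Hsd3b7 stands highest at 83.1% of 50-base stretches, Hsd3b6 reaches 15.7% and Srd5a1 15.1%, and Star, Hsd11b1, Hsd17b1 and Srd5a3 are at 0%.

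Both genes were expressed in the control cells and lower in every library of the knockdown. Hsd3b6 (ENSMUSG00000027869, chromosome 3, 98805504 to 98814443, minus strand) had 419, 469 and 388 reads in si-NC and 161, 147 and 85 reads in si-Snhg18, or 18.1, 19.2 and 16.4 CPM against 6.37, 5.65 and 4.66 CPM. The groups did not overlap, and all 3 knockdown libraries were close together, well below the controls. The mean level was 17.9 ± 1.37 CPM in si-NC and 5.56 ± 0.86 CPM in si-Snhg18 (SD, n = 3), a log2 fold change of −1.68 (SE 0.15) that left 31.1% of the control level.

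Hsd3b1 (ENSMUSG00000027871, chromosome 3, 98852194 to 98859794, minus strand) had 88, 93 and 109 reads in si-NC and 35, 36 and 10 reads in si-Snhg18, or 3.80, 3.80 and 4.62 CPM against 1.38, 1.38 and 0.548 CPM. The groups again did not overlap, and si-Snhg18 3 was far below the other libraries of its group. The mean was 4.07 ± 0.473 CPM in si-NC and 1.11 ± 0.483 CPM in si-Snhg18 (n = 3), a log2 fold change of −1.85 (SE 0.36) that left 27.2%. Without si-Snhg18 3 the log2 fold change was −1.55, and the other libraries left out in turn gave values down to −2.03. For Hsd3b6 the same range was −1.79 to −1.57. For background, the groups did not overlap for 30.9% of all tested genes, and for 15.5% every si-Snhg18 library was below every si-NC library. Nothing is read from these shares here, since both genes were picked by this contrast.

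Between libraries of the same repeat number, Hsd3b6 was left at 35.2%, 29.5% and 28.3% of its control. Hsd3b1 was left at 36.5%, 36.4% and 11.9%. The remaining levels of both genes were thus closer to each other in repeats 1 and 2 than in repeat 3, where Hsd3b1 rested on 10 reads.

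If reads of one gene had been counted for the other, their sum would still hold, so both were also added. The sum was 21.9, 22.9 and 21.1 CPM in si-NC and 7.76, 7.04 and 5.21 CPM in si-Snhg18, with means of 22.0 ± 0.949 and 6.67 ± 1.31 CPM (n = 3). Hsd3b1 took 17.4%, 16.5% and 21.9% of the reads of both genes in si-NC. It took 17.9% (95% Wilson interval 13.1 to 23.8%), 19.7% (14.6 to 26.0%) and 10.5% (5.82 to 18.3%) in si-Snhg18. The shares of si-Snhg18 1 and 2 lay within those of the controls, and that of si-Snhg18 3 lay below all of them. The intervals cover counting error only, and a change in the ratio of the genes was not tested.

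**Figure D2:**
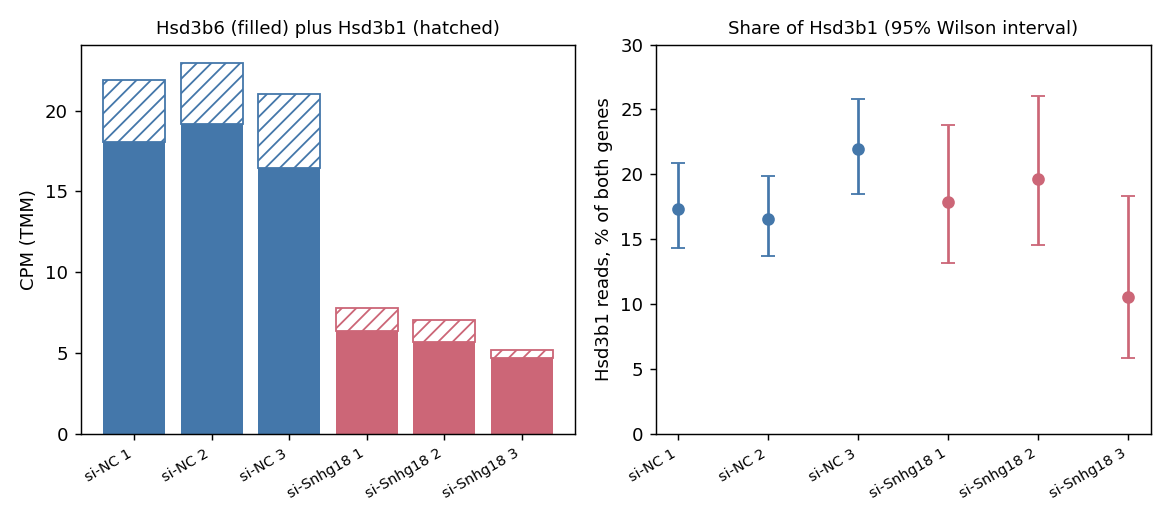
Left, summed level of Hsd3b6 (filled) and Hsd3b1 (hatched) in each library (CPM after TMM scaling, bars from 0). Right, share of Hsd3b1 in the reads of both genes (percent) with 95% Wilson intervals, which cover counting error only. The sums of the 3 si-NC libraries lie between 21.1 and 22.9 CPM and those of si-Snhg18 between 5.21 and 7.76 CPM, while the share of Hsd3b1 is lowest in si-Snhg18 3, at 10.5%.

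The remaining Hsd3b genes of the chromosome 3 cluster were nearly silent. Hsd3b2, Hsd3b3 and Hsd3b4 had 0 reads in all 6 libraries, and Hsd3b5 had 1 read, in si-NC 1. Hsd3b2 and Hsd3b3 could have been counted, since 73.1% and 91.3% of their 50-base stretches occur in no other annotated gene. For Hsd3b4 this share was 0%, and its coding sequence is identical to that of Gm10681. Gm10681 and its relative Gm4450, both looked up after values had been seen, also had 0 reads. How reads with several matches were counted bears on these 3 genes and is not given.

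The genes around the pair are described as well. Within 1 Mb on either side lie 46 further genes without an Hsd3b symbol, Gm4450 and Gm10681 among them, and 8 of the 46 had enough reads to test. In the fit without a block only Sec22b, a SNARE protein of transport between endoplasmic reticulum and Golgi, fell (89.2 ± 2.13 to 67.4 ± 2.24 CPM, n = 3, log2 fold change −0.41, edgeR adjusted p = 0.0195). Its adjusted p ranged from 0.0121 to 0.118 with 1 library left out, and passed only without si-Snhg18 2. In the fit with the replicate block, the zinc finger gene Zfp697 rose as well (0.50, edgeR adjusted p = 0.0125, against 0.0946 without the block and 0.0222 to 0.288 with 1 library left out). Calls were thus 1 of 8 neighbours without the block and 2 of 8 with it, where 7.36% and 27.2% of all tested genes were called. The metabolic gene Phgdh (125 ± 11.7 and 127 ± 13.7 CPM, n = 3) had a log2 fold change of 0.02. Notch2, Wars2, Tbx15 and Pde4dip lay between −0.37 and −0.11. Each neighbour named here had a change of smaller size than either Hsd3b gene. Hsd3b1 and Hsd3b6 were picked for their fall, so nothing is read from that difference.

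**Figure D3:**
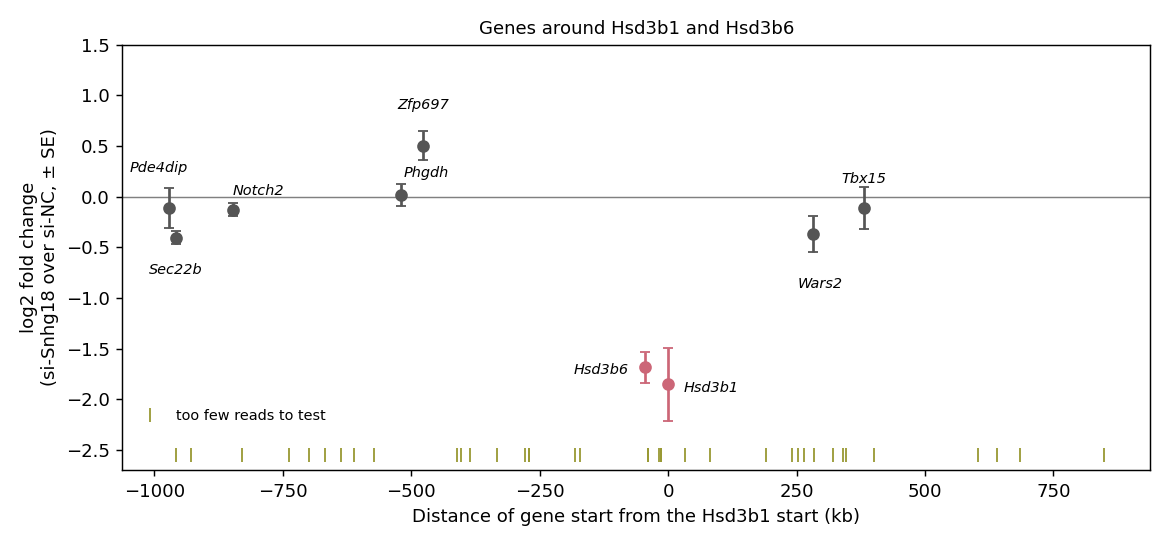
Log2 fold change (si-Snhg18 over si-NC, ± SE) of the tested genes (1 not shown) against the distance of their start from the Hsd3b1 start (kb), with ticks for genes with too few reads. Hsd3b1 (−1.85) and Hsd3b6 (−1.68), in red, were picked by this contrast, and the neighbours plotted lie between −0.41 and 0.50.

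Since both genes were lower together, the bases before their start sites are shown, from RefSeq on GRCm38. Promoter windows were at hand for 8 of the 10 genes. The 250 bases before each start follow, and capitals mark a CCAAT motif.
Hsd3b1, chr3:98859795-98860044, minus strand: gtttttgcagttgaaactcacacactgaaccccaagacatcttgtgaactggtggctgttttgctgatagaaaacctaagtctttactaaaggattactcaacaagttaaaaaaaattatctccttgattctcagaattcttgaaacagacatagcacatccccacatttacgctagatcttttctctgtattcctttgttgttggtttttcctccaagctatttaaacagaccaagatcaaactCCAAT
Hsd3b6, chr3:98814444-98814693, minus strand: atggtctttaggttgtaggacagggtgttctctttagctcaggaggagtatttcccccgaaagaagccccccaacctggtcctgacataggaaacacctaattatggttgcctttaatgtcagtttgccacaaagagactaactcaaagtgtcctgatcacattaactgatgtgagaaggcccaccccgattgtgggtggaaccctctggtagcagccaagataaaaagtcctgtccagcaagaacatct

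The windows, with 50 bases after the start included, were searched on both strands for 9 motifs. These were AGGTCA (nuclear receptors), its longer forms AAAGGTCA (Nr4a) and CAAGGTCA (Nr5a), TGACGTCA (cAMP response), TGANTCA (AP-1), CACGTG (E-box), GGGCGG (GC box), CCAAT and TATAAA. The Hsd3b1 window held 1 CCAAT, beginning 5 bases before the start, and the Hsd3b6 window held none of the 9. CCAAT occurs in 37.4% of the 32544 promoter windows of the table, and AGGTCA, AAAGGTCA and CAAGGTCA occur in 16.2%, 1.52% and 1.53%. Aligned with each other with gaps, the windows of Hsd3b1 and Hsd3b6 were identical at 49.9% of 353 columns. The coding sequences were identical at 90.0%, with no gaps. For background, the window of Hsd3b7 on chromosome 7 was identical at 47.5% of columns to that of Hsd3b6. Against that of Hsd3b1 it was 34.9%. No shared promoter sequence is read from the 49.9%.

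The 5 tested genes that had not been picked by their values gave no call. With edgeR, 0 of 5 had an adjusted p under 0.05, against 7.36% of all tested genes, although 2 of the 5, Star and Srd5a1, had an unadjusted p under 0.05. DESeq2 also called 0. Of all tested genes 3.65% were called higher and 3.71% lower. When the repeat number entered the fit as a block, 2 of 5 were called, since Star fell and Srd5a1 rose, and the block called 27.2% of all tested genes, 13.6% in either direction.

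Star, which brings cholesterol to the enzyme that begins steroid synthesis, had 131, 131 and 96 reads in si-NC and 78, 103 and 36 reads in si-Snhg18. Its levels were 5.66, 5.35 and 4.07 CPM against 3.09, 3.96 and 1.97 CPM. Every knockdown library was thus below every control, as for 15.5% of all tested genes, though si-Snhg18 2 was close to si-NC 3. The means were 5.02 ± 0.843 and 3.01 ± 0.996 CPM (n = 3), and the log2 fold change of −0.73 (SE 0.29) had an edgeR adjusted p of 0.183. With the block it was −0.76, with an edgeR adjusted p of 0.0307. With 1 library left out the log2 fold change lay between −0.98 and −0.51, with edgeR adjusted p-values of 0.0506 to 0.407. No 50-base stretch of Star occurs in another annotated gene.

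Cyp11a1, which makes pregnenolone from that cholesterol, had 0, 1 and 1 reads in si-NC and 0, 2 and 0 reads in si-Snhg18. These counts are under the floor of 3 reads, so no difference was detectable at this depth. The later steroid P450 enzymes were as scarce. Cyp17a1 and Cyp11b2 had 0 reads in all libraries, and Cyp21a1, Cyp11b1 and Cyp19a1 had at most 4. The libraries with reads of Hsd3b1 and Hsd3b6 thus held little or no RNA of Cyp11a1 and these later P450 enzymes. Other enzymes that convert steroids, such as Akr1c18 and Srd5a1, had reads in every library.

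Hsd3b7, which acts on hydroxylated sterols in bile acid synthesis rather than on hormones, had 10, 8 and 2 reads in si-NC and 10, 8 and 13 reads in si-Snhg18. The groups overlapped, and the counts were too low for the test. Its coding sequence is only 56.7% identical to that of Hsd3b1. Its counts are uncertain for another reason, as 62.0% of its exonic bases also belong to Gm49388 on the same strand and 62.4% to 9430064I24Rik on the opposite strand. Both of these genes had at most 1 read in any library.

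Hsd17b1, which reduces oestrone to oestradiol, had 15, 14 and 8 reads in si-NC and 10, 5 and 5 reads in si-Snhg18, too few for the test. The levels were 0.648, 0.572 and 0.339 CPM against 0.396, 0.192 and 0.274 CPM, and the groups overlapped.

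Srd5a1, the 5alpha-reductase that turns testosterone into dihydrotestosterone, had 122, 97 and 108 reads in si-NC and 210, 151 and 116 reads in si-Snhg18. In CPM these were 5.27, 3.96 and 4.58 against 8.31, 5.81 and 6.36. Every knockdown library was thus above every control, where groups did not overlap, in either direction, for 30.9% of all tested genes. The means were 4.60 ± 0.653 and 6.82 ± 1.32 CPM (n = 3), with a log2 fold change of 0.57 (SE 0.20) and an edgeR adjusted p of 0.150. With the block the log2 fold change was 0.56, with an edgeR adjusted p of 0.0339. With 1 library left out it lay between 0.40 and 0.67, with edgeR adjusted p-values of 0.0616 to 0.351. Of its exonic bases 16.4% also belong to Gm17108 on the same strand, which had at most 9 reads in any library.

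Srd5a3, a relative that serves the synthesis of dolichol for protein glycosylation, was at 26.7, 25.3 and 22.9 CPM in si-NC and at 17.8, 30.7 and 20.9 CPM in si-Snhg18. The knockdown libraries lay on both sides of the controls. The log2 fold change was −0.11 (SE 0.21, edgeR adjusted p = 0.786) and became 0.05 without si-Snhg18 1. The tested reductases thus gave estimates of opposite sign, but neither passed the test and the difference between them was not tested.

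Akr1c18, the 20alpha-hydroxysteroid dehydrogenase that inactivates progesterone, was the most abundant of the set. It had 136, 102 and 134 CPM in si-NC and 135, 82.0 and 118 CPM in si-Snhg18, and repeat 2 was lowest in both groups. The means were 124 ± 18.8 and 112 ± 26.9 CPM (n = 3), with a log2 fold change of −0.15 (SE 0.20, edgeR adjusted p = 0.681) that became 0.02 without si-Snhg18 2. Only 0.581% of its 50-base stretches occur in another gene.

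Hsd11b1, which restores active glucocorticoid from its inert 11-keto form, was at 9.15, 13.6 and 8.77 CPM in si-NC and at 11.0, 14.7 and 12.1 CPM in si-Snhg18. The groups overlapped, and repeat 2 was highest in both. The means were 10.5 ± 2.66 and 12.6 ± 1.92 CPM (n = 3), and the log2 fold change of 0.26 (SE 0.21) had an edgeR adjusted p of 0.493.

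**Figure D4:**
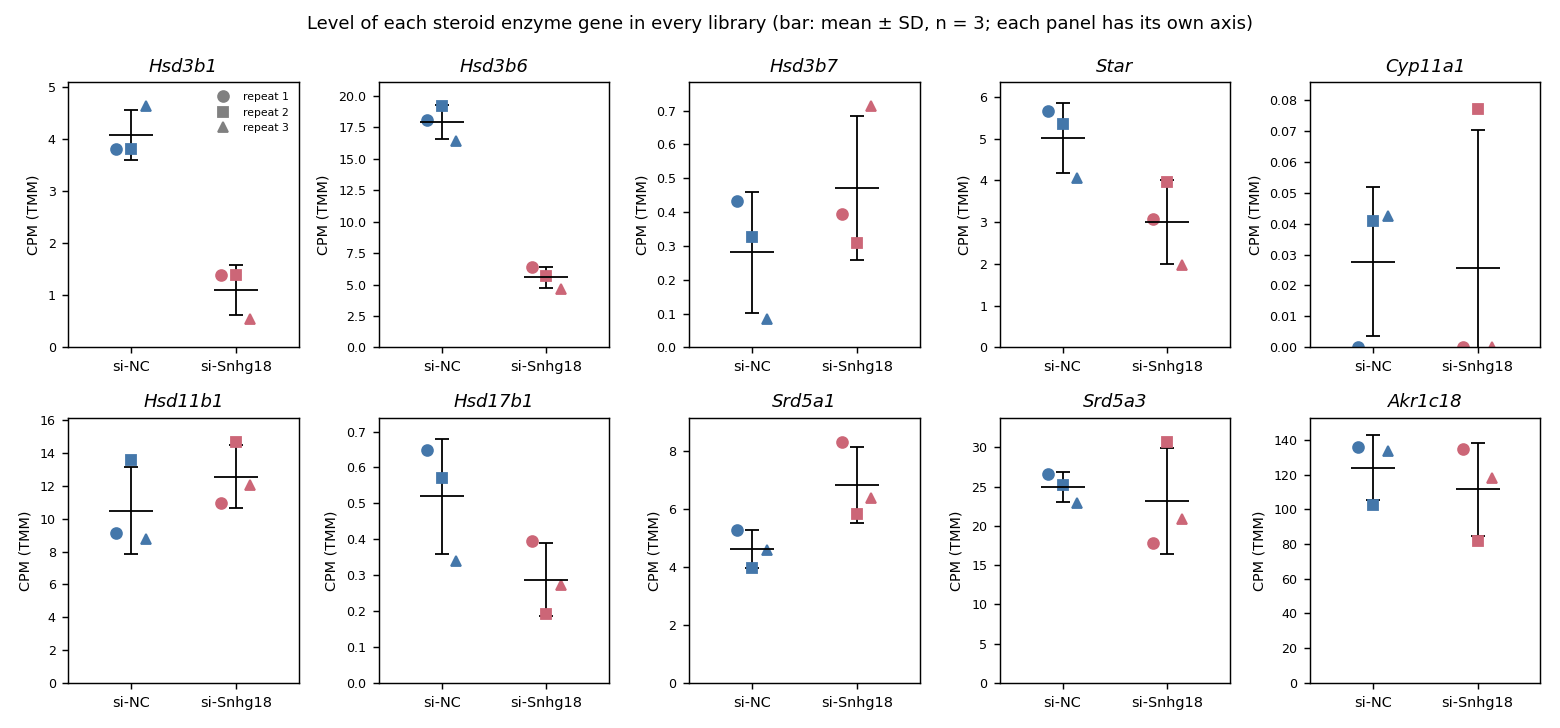
Level of each gene in every library (CPM after TMM scaling, each panel with its own axis from 0), with the mean and SD of the 3 libraries per group and a marker shape for each repeat number. The groups do not overlap for Hsd3b1, Hsd3b6 and Star, which are lower in si-Snhg18, nor for Srd5a1, which is higher, and they overlap for the other 6. Of all tested genes, 30.9% have groups that do not overlap.

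Per kilobase of exon, the order in si-NC was Akr1c18 (103 ± 15.6 CPM per kb), Srd5a3 (14.3 ± 1.09), Hsd3b6 (9.93 ± 0.759), Hsd11b1 (7.74 ± 1.96), Hsd3b1 (2.19 ± 0.255), Srd5a1 (1.74 ± 0.247), Star (1.24 ± 0.208), Hsd17b1 (0.388 ± 0.12) and Hsd3b7 (0.148 ± 0.0937). Of neighbours in this order, only Hsd3b6 and Hsd11b1 overlapped between libraries. In si-Snhg18, Hsd3b6 stood at 3.09 ± 0.477 CPM per kb, behind Hsd11b1 (9.28 ± 1.41) and overlapping with Srd5a1 (2.58 ± 0.498). Hsd3b1 stood at 0.596 ± 0.26 CPM per kb and overlapped with both of its neighbours, Star (0.743 ± 0.246) and Hsd3b7 (0.248 ± 0.112). Cyp11a1 has no place in this order because its deposited length is that of a short transcript.

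The wider pathway was read from a list of 77 further genes of cholesterol supply, steroid conversion, conjugation and control. Of its 42 tested genes, 6 were called with edgeR, 4 higher and 2 lower, or 14.3% against 7.36% of all tested genes. The median log2 fold change of the 42 was 0.08, against 0.01 for all tested genes, and 27 of them had an estimate above 0. The calls of this list depended on single libraries, as did those of all genes. In the list, 0 genes passed without si-NC 1, without si-NC 3 or without si-Snhg18 3, and 14 passed without si-Snhg18 2. Of all tested genes, 0 passed in the former fits and 3282 in the latter. With the replicate block 16 of the 42 were called, 9 higher and 7 lower, where the block called 27.2% of all tested genes, 13.6% in either direction.

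Of the 6 calls, 4 were in the group for cholesterol supply. Npc1, which exports cholesterol from the lysosome, rose from 103 ± 7.90 to 174 ± 13.7 CPM (n = 3, log2 fold change 0.76, edgeR adjusted p = 0.0106). Its partner Npc2 rose from 393 ± 15.6 to 512 ± 39.0 CPM (0.38, edgeR adjusted p = 0.0394), and the HDL receptor Scarb1 from 73.3 ± 7.17 to 119 ± 13.7 CPM (0.70, edgeR adjusted p = 0.0216). Acbd3, a Golgi protein that binds the mitochondrial protein Tspo, fell from 111 ± 5.22 to 90.1 ± 1.12 CPM (−0.30, edgeR adjusted p = 0.0421). The Acbd3 call was lost with library totals (edgeR adjusted p = 0.0585) and with no filter on low counts (0.0866), and that of Npc2 with no filter (0.0516). Library totals gave 5 higher and 1 lower gene in the whole list. In all, 13 genes of this group were tested. The block added Stard4, a cytosolic relative of Star (0.47 without the block), and Vdac1 (0.30). Without the block, both also passed when si-Snhg18 2 was left out (edgeR adjusted p = 0.0213 and 0.0164). Vdac1 was called as well by DESeq2 (adjusted p = 0.0262) and with library totals (edgeR adjusted p = 0.0487). Soat1, Tspo and Stard3 had log2 fold changes between −0.06 and 0.15 and were not called with or without the block.

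Among regulators, Nr4a1, an orphan nuclear receptor known as an activator of steroidogenic genes, fell from 98.4 ± 2.20 to 63.2 ± 4.68 CPM (n = 3, −0.64, edgeR adjusted p = 0.0106). Nr5a1, the main activator of steroidogenic genes, had 0 reads in si-NC and 6, 0 and 2 reads in si-Snhg18, and Nr5a2 had none. Gata4 (3.79 ± 0.75 and 3.50 ± 0.168 CPM) and Gata6 (64.0 ± 2.73 and 58.9 ± 4.11 CPM, n = 3) were not called.

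H6pd, which supplies NADPH to Hsd11b1 in the endoplasmic reticulum, rose from 879 ± 49.0 to 1304 ± 29.6 CPM (n = 3, 0.57, edgeR adjusted p = 0.0106). Hsd11b2, which inactivates glucocorticoid, had 3, 10 and 1 reads in si-NC and 35, 18 and 21 reads in si-Snhg18. It was called higher with the block but not without it, as was Akr1c14 (0.838 ± 0.23 to 1.76 ± 0.58 CPM), a 3alpha-hydroxysteroid dehydrogenase. Akr1c13 (1.20 ± 0.399 to 0.404 ± 0.293 CPM), Dhrs9 (log2 fold change −0.92), Hsd17b7, Papss2 and Amacr were called lower with the block but not without it, and DESeq2 also called Dhrs9 and Amacr. Hsd11b2, Akr1c13, Dhrs9, Papss2 and Amacr also passed without the block when si-Snhg18 2 was left out. Nsdhl, a sterol dehydrogenase related to the Hsd3b family, was called higher with the block but not without it (84.7 ± 17.2 to 106 ± 21.0 CPM), and Sdr42e1 of the same family by neither fit. The electron donors of the mitochondrial and microsomal P450 enzymes, Fdx1, Fdxr, Por and Cyb5a, had log2 fold changes of 0.06 to 0.33 and were not called.

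The receptors for steroids gave 0 calls among 8 tested with edgeR, where 7.36% of all tested genes were called, and 0 with DESeq2, with 2 at an unadjusted p under 0.05. The glucocorticoid receptor Nr3c1 was at 77.6 ± 10.1 CPM in si-NC and 80.6 ± 8.46 CPM in si-Snhg18 (n = 3). Oestrogen receptor Esr1 was at 0.659 ± 0.144 and 0.897 ± 0.0918 CPM, and the progesterone receptor Pgr had at most 2 reads. With the block, which called 27.2% of all tested genes, Pgrmc1 (−0.26) and Nr1h2 (−0.19) were called lower, 2 of 8.

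**Figure D5:**
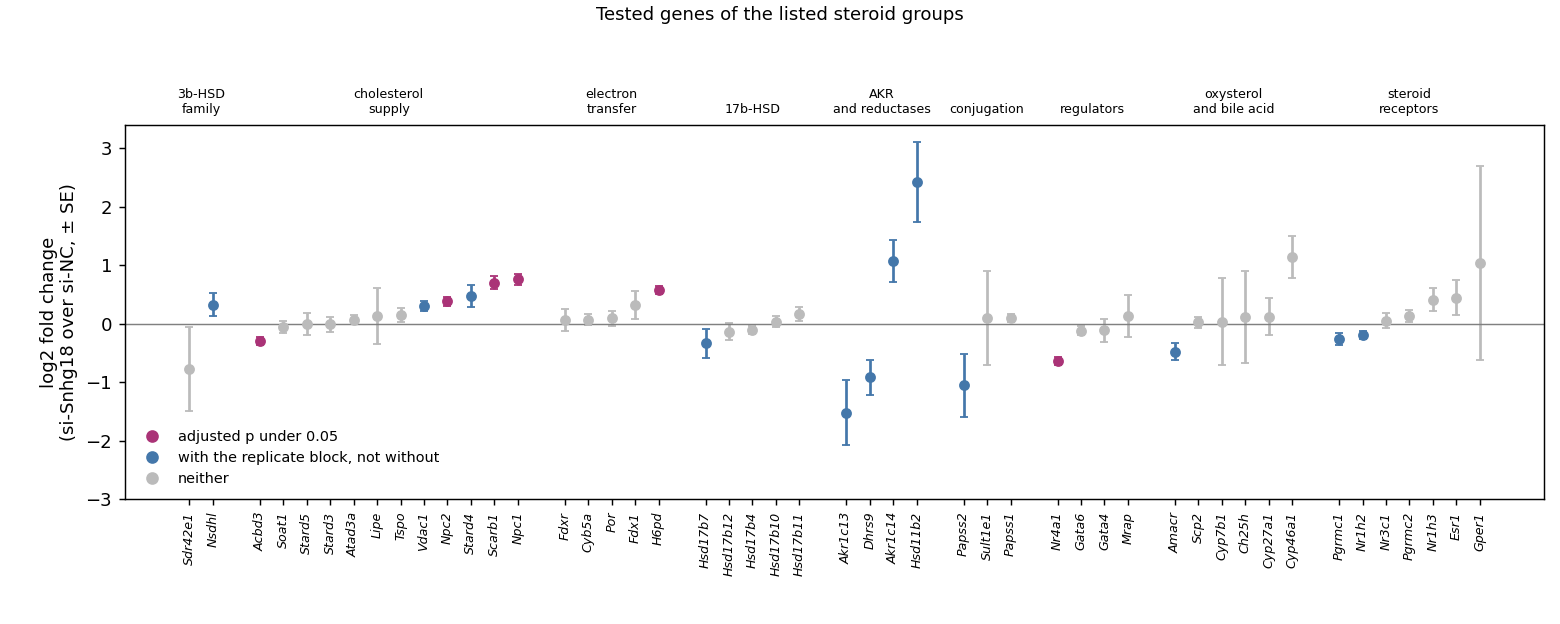
Log2 fold change (si-Snhg18 over si-NC, ± SE) of the 42 tested genes of the pathway list and the 8 tested receptors, by group, with 1 gene of each not shown. The 6 genes called without the block, among them Npc1 at 0.76 and Nr4a1 at −0.64, are in purple, those called with the replicate block but not without it in blue and the rest in grey.

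By Pearson correlation of log2 CPM over the 6 libraries, among 11849 genes with a mean of at least 1 on that scale, the genes most like Hsd3b1 were Sec61b (r = 0.997), Chchd3 (0.993), Upf3a (0.993), Zfp646 (0.991) and Rars (0.990). In that order their log2 fold changes were −0.46, −0.16, −0.46, −0.20 and −0.23, against −1.85 for Hsd3b1, so r ignores the size of a change. Without the block, edgeR called Sec61b and Upf3a lower, each in 1 of the 6 fits with 1 library left out. Rars was called lower with the block, and Chchd3 and Zfp646 by neither fit. Hsd3b6 had an r of 0.952 and came 125th, and 139 genes reached at least 0.95. The libraries fall into groups of 3, so that a gene lower in all 3 knockdown libraries scores high, and these values describe likeness only.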

How the data were processed

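RNA of 3 si-NC and 3 si-Snhg18 libraries of mPASMCs was sequenced after preparation with the TruSeq Stranded mRNA kit. The authors deposited a table of raw, whole-number counts, 1 row per gene, with the exon length and GRCm38 position of each gene. HISAT2 and the build mm10 are named in the submitters' processing notes. The counting program, strand setting and read length are not given in the sources used here.

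The groups were compared by the quasi-likelihood test of edgeR 4.0.16 (glmQLFit, glmQLFTest) under R 4.3.3, after TMM scaling and a filter on low genes (filterByExpr, minimum count 10). Adjustment (Benjamini-Hochberg) covered the 14531 genes that passed. The estimated biological coefficient of variation was 0.218 in common. The SE of a log2 fold change is its size divided by the square root of the F value of this test. For Hsd3b1 and Hsd3b6, picked by this contrast, the SE is a description only. For log2 CPM a prior count of 2 was added. A gene was called at an adjusted p under 0.05. With 3 libraries per group, an exact two-sided permutation test of a single value cannot go below 0.1, so none was used. The fit was tested on simulated counts.

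The pairing of libraries comes from the repeat numbers in the labels. Deviations from the group means correlated within every pair (r = 0.410, 0.742 and 0.359), so a fit that takes the repeat number as a block is given where it changes a call. The study states no such block, and the planned fit had none. No libraries were duplicates, as each pair differed in at least 20781 genes.

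Members, gene lists and markers were chosen with earlier results of these data known. The genes named are the 10 members, the Hsd3b family list, list genes called with or without the block, tested neighbours within 1 Mb, the smooth muscle and steroidogenic markers, *Snhg18* and the 5 genes most like Hsd3b1. Other genes named, such as those that overlap a member, were singled out after values were seen. The values of 3 listed or neighbouring genes are not reported here. Hsd3b8, Hsd3b9, Hsd17b8 and Sts of the lists were not matched.

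Common stretches were counted as exact matches on both strands of the annotated GRCm38 transcripts with Python 3.11.15, and coding sequences were aligned with biopython 1.88. Promoters were from RefSeq (GRCm38). Figures were drawn with matplotlib 3.10.9. Alternatives were DESeq2 1.42.0, RLE factors, library totals, no filter, the replicate block and leaving out each library.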

Additional observations from a re-analysis of the deposited data

How the results depend on the processing

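With the replicate block the calls were 2 of the 5 tested members not picked by values (against 0), 16 of the pathway list (against 6), 2 receptors (against 0), 6 glucocorticoid-responsive genes (against 1), 2 neighbours of the Hsd3b pair (against 1) and 3954 of all genes (against 1069, of which 530 were higher). The pairing also moved the calls from 1 to 4 of the smooth muscle markers, from 0 to 2 of the fibroblast markers and from 0 to 1 each of the endothelial, leukocyte and epithelial markers, and left the dolichol list at 0. DESeq2 called 2 glucocorticoid-responsive genes, 2 neighbours and 2115 genes in all. Library totals in place of TMM gave 613 higher and 492 lower genes. With 1 library left out, the calls ranged from 0 to 14 for the pathway list, from 0 to 5 for glucocorticoid-responsive genes, from 0 to 1 for the dolichol list, from 0 to 3 for neighbours and from 0 to 3282 for all genes, with 0 in all without si-NC 1, si-NC 3 or si-Snhg18 3 and the most without si-Snhg18 2. The cause was not tested. Single genes that changed sign with 1 library left out were Srd5a3 (log2 fold changes −0.37 to 0.050), Akr1c18 (−0.31 to 0.024), Tbx15 (−0.27 to 0.058), Pde4dip (−0.26 to 0.067) and Phgdh (−0.053 to 0.10), none of them called. For the 54 genes followed, no other setting reversed a sign. Hsd3b7, Hsd17b1 and Cyp11a1 were too low to test, and Hsd3b1 rested on 10 reads in si-Snhg18 3.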

Other observations

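Genes known to respond to glucocorticoids gave 1 call among 12 tested, or 8.33% against 7.36% of all tested genes. Sgk1, a kinase induced by glucocorticoids and mineralocorticoids, fell from 613 ± 21.1 to 437 ± 25.0 CPM (n = 3, log2 fold change −0.49, edgeR adjusted p = 0.0172), and passed in 2 of the 6 fits with 1 library left out. The median log2 fold change of the 12 was −0.31, with 8 estimates below 0, against 0.01 for all tested genes. With the replicate block Zbtb16, Dusp1, Pdk4, Errfi1 and Angptl4 were called lower as well, 6 of 12, where the block called 13.6% of all tested genes lower. DESeq2 called Sgk1 and Errfi1. Fkbp5, often used as a readout of the glucocorticoid receptor, had 1518, 2808 and 1305 reads in si-NC and 1588, 4494 and 1475 reads in si-Snhg18. Its repeat 2 was highest in both groups, and its log2 fold change of 0.43 was not called.

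The dolichol pathway that Srd5a3 serves gave 0 calls among 8 tested genes with edgeR, with or without the block, and 0 with DESeq2, with 1 gene, Dpm2, at an unadjusted p under 0.05 (33.5 ± 0.641 to 38.1 ± 0.27 CPM, n = 3). Of all tested genes, edgeR called 7.36% without the block and 27.2% with it. Nus1, a subunit of the enzyme that builds the dolichol chain, was at 184 ± 2.64 CPM in si-NC and 201 ± 0.701 CPM in si-Snhg18 (n = 3), and its partner Dhdds at 30.6 ± 1.46 and 26.5 ± 4.24 CPM.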
